A study of Homo sapiens with 24 samples.

Results

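The 10 proteins described here build the mitotic spindle or divide the cell after mitosis, and they were followed at the level of their transcripts through the Human Cell Cycle time series. The genes TPX2, HMMR, DLGAP5, NUSAP1, CKAP2, ASPM, PRC1, RACGAP1, ECT2 and ANLN were chosen by function, with earlier results of these data known. They were found by symbol through their Ensembl identifiers, and all 10 were among the 12285 genes of the expression table. K562 is an established human leukaemia cell line that resembles early erythroid cells and grows as a suspension. The cells were grown in RPMI with 10% bovine calf serum and P/S, and a synchronous population was collected by centrifugal elutriation, which separates cells by size. Total RNA was then extracted at 24 time points, 2 h apart and ending at 46 h, with 1 library for each. The study used the series to examine time points whose transcript levels depart from those of their neighbours across the transcriptome (STRIPEs), and it named 16 h and 18 h, with 32 h as a weaker case. The paper proposes that STRIPEs arise technically and not from the biology of the cells, and it could not find the step responsible. All libraries came from cells of the same line with no treatment named. Time after elutriation was the only variable in the sample labels, which do not say how libraries were batched.

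The mitotic spindle is a bipolar array of microtubules that pulls the duplicated chromosomes apart. After anaphase its middle is rebuilt into the spindle midzone, an overlap of antiparallel microtubules that tells the cortex where to form the contractile ring. Many genes of both processes are transcribed mainly in G2 and mitosis and are switched off in G1, and in their promoters 2 short elements are known: the CHR (cell cycle genes homology region) and the CCAAT box.

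Values are FPKM (fragment counts scaled to transcript length and library size) as deposited, so levels are per length and relative to the rest of each library. In bulk RNA, fewer cells in G2 or mitosis and less transcript in each such cell cannot be told apart. The 10 K562 erythroid markers fixed for a check of the cell type were all in the table, at a summed 2790 to 7949 FPKM. Of 4 lymphoid markers 2 were in it, at a summed 4.81 to 14.1 FPKM, and of 4 fibroblast markers 1, at 1.70 to 3.94 FPKM. Of 4 epithelial markers 1 was in it, EPCAM, at 56.1 to 114 FPKM. The summed FPKM of the libraries was 456791 to 520382 except in the 16 h (566247) and 18 h (591309) libraries. Reads of RACGAP1 and CKAP2 may be shared with processed pseudogenes, and those of HMMR and PRC1 with antisense genes, as strandedness is not given. Depth is unknown, and without replicates each value is that of 1 library. For scale, the scatter of a single library about its neighbours, taken without 16 h and 18 h, had an SD of 0.091 (NUSAP1) to 0.185 (PRC1) on the log2 scale.

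RefSeq promoters on GRCh38.p14 were at hand for 8 of the 10 genes, in 9 windows of 250 bases before to 50 bases after a transcript start. The CHR was searched as TTTGAA or TTCGAA and the CCAAT box as CCAAT, each on both strands. TTTGAA was found for 7 of the 8 genes, against 15.2% of 35116 promoters and 13.1% of the 9007 table genes with a promoter. TTCGAA was found in none of the 9 windows, against 1.45% of promoters. CCAAT was found for 6 of the 8 genes, against 34.6% of promoters and 43.9% of table genes, and the same 6 genes held both a CHR and a CCAAT box, against 6.38% of promoters. A match is a match of letters only. The promoters of 6 genes are shown: with 16 h and 18 h left out, HMMR, ASPM and DLGAP5 had the widest ranges of the first 12 time points and PRC1 and ANLN the narrowest fitted amplitudes, and CKAP2 held neither element. They cover the 250 bases before the transcript start, 5′ to 3′ on the strand of the gene, with the CHR (TTTGAA, or TTCAAA on the other strand) and the CCAAT box (CCAAT, or ATTGG on the other strand) in capitals. They lie at chr5:163460382-163460631 on the plus strand (HMMR), chr1:197146670-197146919 on the minus strand (ASPM), chr14:55191586-55191835 on the minus strand (DLGAP5), chr15:90994536-90994785 on the minus strand (PRC1), chr7:36389612-36389861 on the plus strand (ANLN) and chr13:52455738-52455987 on the plus strand (CKAP2).
HMMR: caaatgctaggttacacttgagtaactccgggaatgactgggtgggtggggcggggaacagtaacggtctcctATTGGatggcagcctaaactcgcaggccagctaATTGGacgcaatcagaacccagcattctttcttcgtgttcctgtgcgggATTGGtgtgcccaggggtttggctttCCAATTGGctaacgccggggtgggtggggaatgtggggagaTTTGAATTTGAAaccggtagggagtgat
ASPM: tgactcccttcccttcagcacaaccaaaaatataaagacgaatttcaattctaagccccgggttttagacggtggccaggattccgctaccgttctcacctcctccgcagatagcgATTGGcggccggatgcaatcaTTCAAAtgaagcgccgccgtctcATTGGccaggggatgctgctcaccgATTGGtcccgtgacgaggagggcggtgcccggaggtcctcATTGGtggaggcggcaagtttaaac
DLGAP5: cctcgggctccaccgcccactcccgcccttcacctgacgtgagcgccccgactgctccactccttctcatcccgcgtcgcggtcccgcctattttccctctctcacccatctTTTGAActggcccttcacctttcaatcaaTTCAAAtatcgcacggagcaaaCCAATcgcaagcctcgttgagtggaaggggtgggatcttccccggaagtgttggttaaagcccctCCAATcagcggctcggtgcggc
PRC1: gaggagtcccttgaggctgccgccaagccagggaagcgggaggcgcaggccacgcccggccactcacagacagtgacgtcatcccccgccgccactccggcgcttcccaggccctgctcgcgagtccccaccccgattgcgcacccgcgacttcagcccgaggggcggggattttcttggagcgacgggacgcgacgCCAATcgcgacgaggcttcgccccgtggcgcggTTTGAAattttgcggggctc
ANLN: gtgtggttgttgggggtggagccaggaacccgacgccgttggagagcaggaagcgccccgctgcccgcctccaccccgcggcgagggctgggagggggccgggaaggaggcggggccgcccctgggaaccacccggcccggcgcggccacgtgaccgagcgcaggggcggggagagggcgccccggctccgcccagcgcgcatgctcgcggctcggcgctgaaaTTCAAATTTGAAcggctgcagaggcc
CKAP2: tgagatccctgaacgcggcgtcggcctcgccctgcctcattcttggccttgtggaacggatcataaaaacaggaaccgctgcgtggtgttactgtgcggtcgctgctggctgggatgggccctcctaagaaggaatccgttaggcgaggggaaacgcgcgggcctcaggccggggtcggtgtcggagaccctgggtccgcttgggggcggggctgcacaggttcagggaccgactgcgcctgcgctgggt
In HMMR, 2 adjoining copies of TTTGAA began 28 and 22 bases before the start. In PRC1 and ANLN a copy began 20 bases before it, and ANLN had no CCAAT box. ASPM had 4 CCAAT boxes, all as ATTGG. Of the genes not shown, ECT2 had 2 start windows, both with TTTGAA, and in NUSAP1 the only TTTGAA began at base 14 after the start.

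Over the first 12 time points (0 h to 22 h, here the first day), most of the 10 transcripts were low in the early hours and all stood high near the end, and over the next 12 (24 h to 46 h, the second day) they varied less. The lowest value of the first day lay from 2 h to 6 h in 9 of 10 genes, against 29.7% of the 12253 genes tested, which had to average at least 1 FPKM. With 16 h and 18 h left out, the highest value of the first day was at 20 h or 22 h in 10 of 10, against 25.2% of genes. With them included, all 10 were highest at 18 h, as were 31.4% of genes. The plot of FPKM by time shows these courses.

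**Figure D1:**
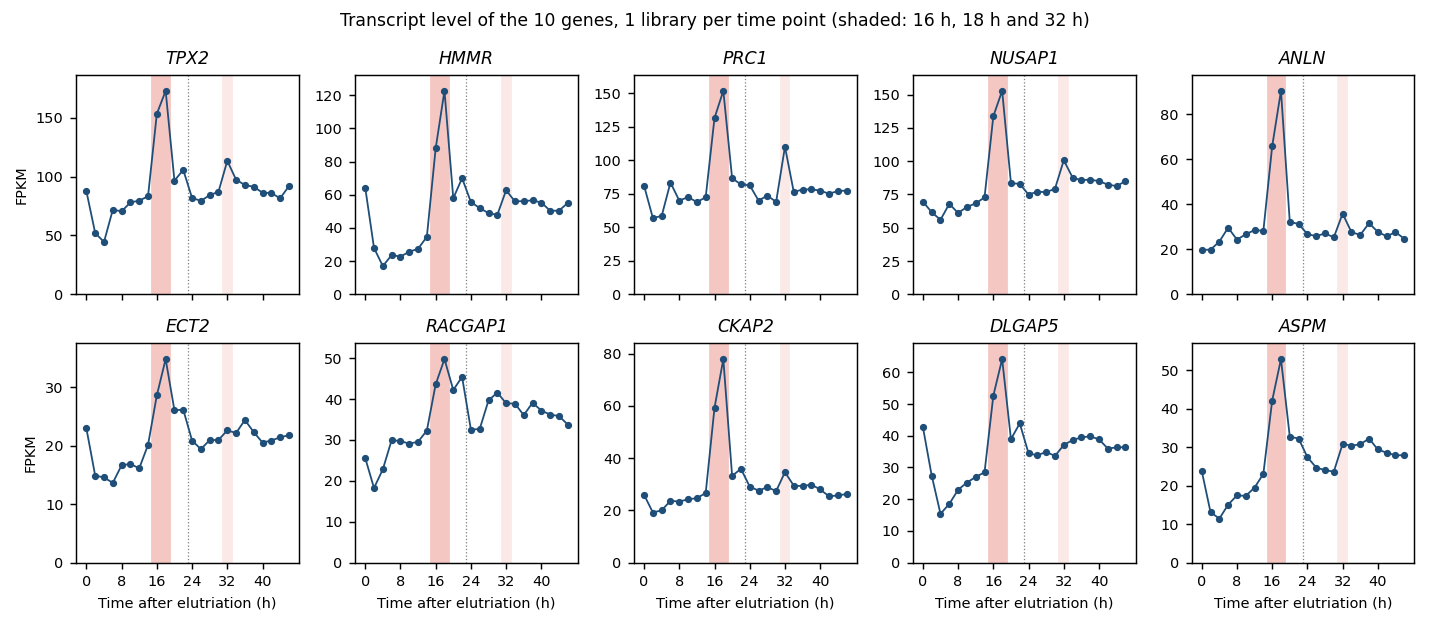
FPKM (vertical axes, from 0) of each of the 10 genes against time after elutriation in hours, each point 1 library, with 16 h, 18 h and 32 h shaded and a dotted line between the first and the second day. All 10 genes are highest at 18 h, 9 are lowest on the first day from 2 h to 6 h, and the second day varies less than the first.

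HMMR, ASPM and DLGAP5, which act on spindle assembly, had the widest ranges of the first day without 16 h and 18 h. TPX2 activates the kinase Aurora A and starts microtubule growth around chromosomes under the control of Ran. Its level was 87.6 FPKM at 0 h, 44.4 FPKM at 4 h, 83.2 FPKM at 14 h and 106 FPKM at 22 h. It reached 153 FPKM at 16 h and 173 FPKM at 18 h, and on the second day it lay from 79.4 FPKM at 26 h to 97.4 FPKM at 34 h apart from 113 FPKM at 32 h. The 0 h value fell within the second-day range, and the values from 2 h to 10 h lay below it.

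HMMR, a microtubule-binding protein of the spindle poles that works with TPX2, changed most. It fell from 64.3 FPKM at 0 h to 16.98 FPKM at 4 h, was still 34.6 FPKM at 14 h and stood at 70.0 FPKM at 22 h, 4.12-fold above its lowest value. At 18 h it was 123 FPKM. Every second-day value, from 47.8 FPKM at 30 h to 62.7 FPKM at 32 h, lay above every value from 2 h to 14 h.

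DLGAP5, which stabilizes the microtubule fibres that hold kinetochores, followed the same course at a lower level. It was 42.8 FPKM at 0 h, 15.4 FPKM at 4 h and 43.9 FPKM at 22 h, with 64.2 FPKM at 18 h. Its second day was the flattest as deposited, from 33.6 FPKM at 30 h to 39.8 FPKM at 38 h, a 1.18-fold range. ASPM, a spindle pole protein needed for the division of neural progenitors, was 23.9 FPKM at 0 h, 11.4 FPKM at 4 h and 32.8 FPKM at 20 h, a 2.87-fold rise from the lowest value. At 18 h it was 53.0 FPKM, and on the second day it ranged from 23.7 FPKM at 30 h to 32.3 FPKM at 38 h. Both genes were lowest at 4 h, and on the second day without 32 h DLGAP5 had a range of 1.18-fold and ASPM of 1.36-fold, the widest of the 10 genes.

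NUSAP1 and CKAP2, which bundle or stabilize spindle microtubules, moved less. NUSAP1 lay from 56.0 FPKM at 4 h to 83.5 FPKM at 20 h on the first day without 16 h and 18 h, a 1.49-fold range, and reached 153 FPKM at 18 h. CKAP2 rose from 19.2 FPKM at 2 h to 35.9 FPKM at 22 h, 1.87-fold, and reached 77.9 FPKM at 18 h. In CKAP2 the excess at 18 h was therefore larger than the whole remaining first-day range.

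Of the 4 cytokinesis genes, RACGAP1 and ECT2, the pair that carries the signal to the cortex, had wider ranges on the first day without 16 h and 18 h than PRC1 and ANLN. RACGAP1 is the GTPase-activating subunit of centralspindlin, and it recruits ECT2, the exchange factor that activates RhoA at the equator. RACGAP1 rose from 18.2 FPKM at 2 h to 45.4 FPKM at 22 h, 2.49-fold, with 49.8 FPKM at 18 h. Its second-day values, from 32.5 FPKM at 24 h to 41.6 FPKM at 30 h, all lay above its 0 h value of 25.6 FPKM. ECT2 rose from 13.7 FPKM at 6 h to 26.2 FPKM at 22 h, 1.92-fold, with 34.8 FPKM at 18 h. Its lowest value came later than that of the other genes.

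PRC1, which cross-links antiparallel microtubules in the midzone, was 81.0 FPKM at 0 h, 56.9 FPKM at 2 h and 86.6 FPKM at 20 h, a 1.52-fold range without 16 h and 18 h. It was 152 FPKM at 18 h and 110.0 FPKM at 32 h, between 68.9 FPKM at 30 h and 76.3 FPKM at 34 h. ANLN, the scaffold that ties actin, myosin and septins together at the cleavage furrow, was also low early, but its lowest value came at 0 h. It was 19.7 FPKM at 0 h, 19.8 FPKM at 2 h and 23.4 FPKM at 4 h. It stood at 28.2 FPKM at 14 h and 32.1 FPKM at 20 h, and was 65.7 FPKM at 16 h and 90.3 FPKM at 18 h. In ANLN the value at 18 h was thus more than 2-fold above every time point other than 16 h.

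By mean level over all 24 time points the order was TPX2 (90.4 FPKM), NUSAP1 (82.4 FPKM), PRC1 (81.5 FPKM), HMMR (51.2 FPKM), DLGAP5 (35.3 FPKM), RACGAP1 (35.0 FPKM), ANLN (31.3 FPKM), CKAP2 (30.6 FPKM), ASPM (26.6 FPKM) and ECT2 (21.3 FPKM). By this mean TPX2 stood above 90.8% of genes of the table and ECT2 above 61.5%. PRC1 was above HMMR at 24 of 24 time points, TPX2 above NUSAP1 at 22 and ASPM above ECT2 at 22. RACGAP1 and DLGAP5 exchanged places, with RACGAP1 higher at 13 of 24 time points, as did CKAP2 and ANLN, with CKAP2 higher at 11. Without 16 h and 18 h the mean of RACGAP1 (34.0 FPKM) was above that of DLGAP5 (33.2 FPKM). That of CKAP2 (27.2 FPKM) was then above that of ANLN (27.1 FPKM).

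Whether the first-day course recurred was tested with limma on log2(FPKM + 1), fitting a 24 h cosine to each day and comparing the days. The cosine differed between the days in 8 of 10 genes, against 5.1% of genes tested (Benjamini–Hochberg adjusted p over all genes). The adjusted limma p was 0.00588 for HMMR and ECT2, 0.00789 for ASPM, 0.00827 for DLGAP5, 0.0216 for TPX2, 0.0261 for CKAP2, 0.0427 for RACGAP1 and 0.0466 for NUSAP1. For ANLN it was 0.1 and for PRC1 0.128. The fitted peak-to-trough difference was smaller on the second day in 10 of 10 genes, a count without a share of all genes beside it. Its median was 1.26 on the log2 scale on the first day and 0.20 on the second. Over all genes tested the median fell as well, from 0.43 to 0.21. Without 16 h and 18 h the test called 5 of 10 genes, against 4.15% of genes, and these were HMMR, ECT2, ASPM, DLGAP5 and CKAP2. Without 32 h it also called 5 of 10, against 2.65%, and without all 3 of these time points 5 of 10, against 6.42%.

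The order of the first-day amplitudes was read without 16 h and 18 h. HMMR had a peak-to-trough difference of 1.73 ± 0.22 (SE of the fit, 10 time points) on the log2 scale, ASPM 1.30 ± 0.18 and DLGAP5 1.18 ± 0.18. ECT2 followed at 0.88 ± 0.12, TPX2 at 0.87 ± 0.20, RACGAP1 at 0.77 ± 0.21 and CKAP2 at 0.66 ± 0.14. NUSAP1 (0.47 ± 0.11), ANLN (0.44 ± 0.17) and PRC1 (0.30 ± 0.18) had the smallest. Only the gaps after HMMR (0.42), after DLGAP5 (0.31) and after CKAP2 (0.19) were larger than the combined standard error of the neighbours (0.28, 0.21 and 0.17). The fitted first-day peaks lay from 15.7 ± 1.26 h (ANLN) to 19.5 ± 0.45 h (HMMR), and no neighbours in that order were farther apart than their combined standard error.

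**Figure D2:**
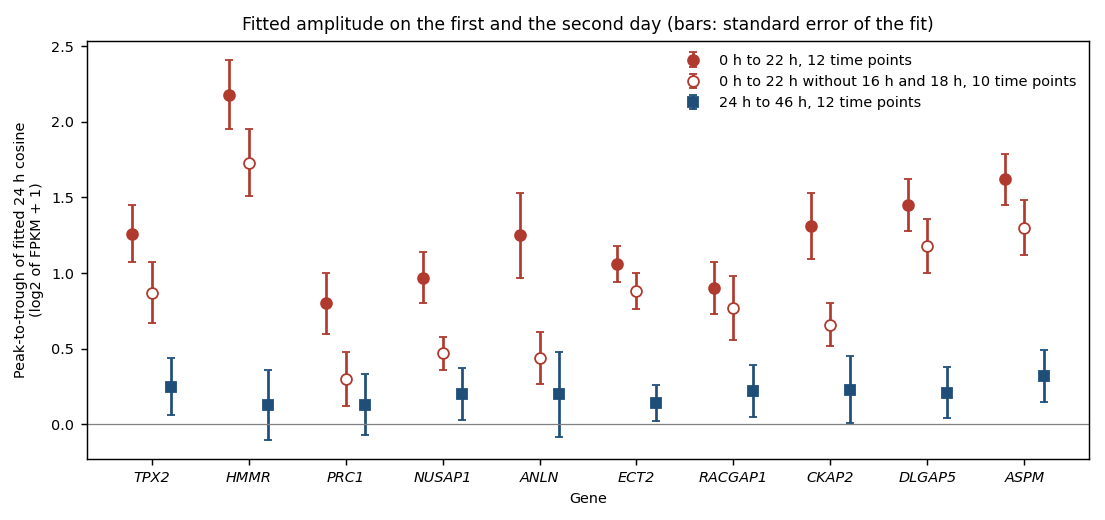
Peak-to-trough difference of the fitted 24 h cosine on the log2(FPKM + 1) scale for each gene, with the standard error of the fit as bars, for the first day (filled circles), the first day without 16 h and 18 h (open circles) and the second day (squares). HMMR has the largest first-day difference in both fits, and all 10 second-day values lie from 0.13 to 0.32.

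Hours that lie 24 h apart were then set side by side. At 28 h HMMR was 2.88-fold its level at 4 h, DLGAP5 2.27-fold, ASPM 2.1-fold, TPX2 1.9-fold and RACGAP1 1.74-fold. For ECT2 and CKAP2 this ratio was 1.44, for NUSAP1 1.37, for PRC1 1.26 and for ANLN 1.16. At 46 h against 22 h the ratio was 0.731 (CKAP2) to 1.03 (NUSAP1). As 4 h was the lowest hour of HMMR, TPX2, DLGAP5, NUSAP1 and ASPM, their ratio at 28 h was above 1 by that choice. Over all matched hours without 16 h and 18 h, the median difference was 0.09 (PRC1) to 0.93 (HMMR) on the log2 scale. The second-day range without 32 h was 1.17-fold to 1.36-fold, with a median of 1.21-fold against 1.37-fold over all genes. It was below 1.5-fold in 10 of 10 genes, against 65.7% of genes. On the first day without 16 h and 18 h, the range had a median of 2.15-fold against 1.57-fold over all genes and reached 2-fold in 5 of 10, against 21.9%.

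The mean level, with the cosine of each day in the model, was higher on the second day in 2 of 10 genes by limma, against 14.8% of genes, and lower in 0 of 10, against 11%. These were HMMR, by 0.41 ± 0.12 (SE) on the log2 scale (adjusted p = 0.0146), and ASPM, by 0.30 ± 0.09 (adjusted p = 0.0145). Without 16 h and 18 h, limma called 5 of 10 genes higher, against 18.6%. NUSAP1 (0.24 ± 0.05), ECT2 (0.15 ± 0.05) and DLGAP5 (0.29 ± 0.08) were then added. Of the hours matched between the days with 16 h and 18 h left out, the second day was higher in 6 (ANLN) to 9 (NUSAP1) of 10.

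A rhythm of 24 h over the whole series was called in few of the genes. JTK, which scores the order of the values against a cosine, called 2 of 10, against 11.9% of genes (permutation p from 100000 orderings, Benjamini–Hochberg adjusted over all genes). These were ASPM (adjusted p = 0.0279) and DLGAP5 (adjusted p = 0.0466). The limma fit of 1 cosine called 3 of 10, against 9.02%. They were ASPM at 0.91 ± 0.21 (SE) on the log2 scale (adjusted p = 0.0238), DLGAP5 at 0.76 ± 0.19 (adjusted p = 0.0386) and ECT2 at 0.52 ± 0.14 (adjusted p = 0.0475). HMMR had the largest fitted difference, 1.07 ± 0.30, with an adjusted limma p of 0.0543. Fitted peaks of this cosine lay from 18 h to 24 h in 3 of 10 genes, against 25.1%. Without 16 h and 18 h both tests called 0 of 10, against 16.2% by JTK and 16.4% by limma, and the smallest unadjusted p values were those of ASPM, at 0.0245 by JTK permutation and 0.00901 by limma. At an unadjusted p under 0.05, JTK then held 2 of the genes, ASPM and DLGAP5, and limma 4. The share of all genes at that threshold was not at hand, so these counts cannot be compared with it. The fitted differences were then 0.82 ± 0.30 for HMMR, 0.72 ± 0.21 for ASPM and 0.59 ± 0.19 for DLGAP5. With 32 h left out alone, the cosine fit called 6 of 10, against 11.1% of genes. With 16 h, 18 h and 32 h all left out it called 3 of 10, against 17.9%, namely HMMR, ASPM (0.82 ± 0.20) and DLGAP5 (0.67 ± 0.19). Their Benjamini–Hochberg adjusted limma p was 0.0465, 0.0252 and 0.0488. Neighbouring time points of 1 culture are not independent, so these p-values, and those of the comparison of days, measure scatter about a curve and may be too small.

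The excess at 16 h and 18 h was present in every gene and differed in size. The value at 16 h was above those at 14 h and 20 h in 10 of 10 genes, and 18 h was above 16 h in 10 of 10. Shares of all genes were not taken for these counts, but 31.4% of all genes were highest of the series at 18 h. The deviation of the pair, averaged over both libraries and taken from a line drawn through 14 h and 20 h, was 1.33 on the log2(FPKM + 1) scale for ANLN, 1.20 for HMMR and 1.17 for CKAP2. These 3 of 10 genes were at 2-fold or more, against 8.95% of genes, and 8 of 10 were at 1.5-fold or more, against 23.9%. NUSAP1 (0.87), TPX2 (0.85), PRC1 (0.83), DLGAP5 (0.79) and ASPM (0.76) lay close together, and ECT2 (0.45) and RACGAP1 (0.33) were lowest. The median was 0.84, and 0.14 over all genes. In each gene the deviation was above the highest of the same measure at 16 other pairs of time points, which was 0.10 (DLGAP5) to 0.32 (PRC1). The share of all genes for which this holds was not taken, so it is not known to be particular to these genes.

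The transcripts of the 10 genes had a GC content of 37.1% (ASPM) to 48.2% (RACGAP1), all below the median of 49.2% over all genes. It was the median over the annotated protein-coding transcripts of each gene. Their median length was 577 bases for RACGAP1, 735 for ECT2, 755 for PRC1 and 757 for ANLN, against 1566 over all genes. The other members had 1881 bases (DLGAP5) or more. For the genes with short medians, the GC content may not be that of the full transcript. The 1000 genes nearest in GC content to each had a median deviation of 0.24 (RACGAP1) to 0.58 (ECT2 and CKAP2). Less that median, the deviation had a median of 0.46 and ranged from -0.14 (ECT2) to 0.78 (ANLN), and 0 of 10 genes remained at 2-fold. Among the 10 genes, ANLN (1.33 at 40% GC), HMMR (1.20 at 38%) and CKAP2 (1.17 at 38.1%) deviated most, and RACGAP1 (0.33 at 48.2%) least. Between these, ASPM (37.1%) had 0.76 and ECT2 (38.3%) 0.45, beside 0.83 for PRC1 (47.9%) and 0.85 for TPX2 (46.6%). A part of GC content in the deviation was not tested. Upper-quartile scaling, which moved the median of all genes from 0.14 to -0.06, gave a median of 0.61 for the 10 genes and left ANLN at 2-fold.

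**Figure D3:**
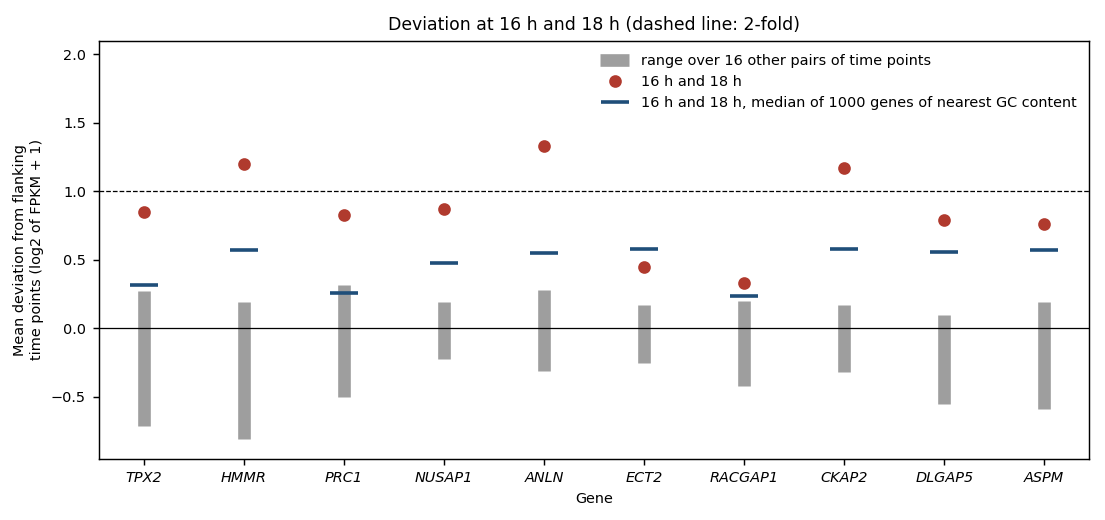
Deviation of the 16 h and 18 h pair from a line drawn through 14 h and 20 h for each gene on the log2(FPKM + 1) scale (circles), the range of the same measure at 16 other pairs of time points (grey bars) and the median at 16 h and 18 h of the 1000 genes nearest in GC content (dashes). All 10 circles lie above their grey bars, 3 lie above the dashed line at 2-fold, and ECT2 lies below its dash. The share of all genes above such a bar was not taken.

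At 32 h, 8 of 10 genes were above both neighbours, by less, and the share of all genes that were so was not taken. PRC1 deviated by 0.59 on the log2 scale and was the only one at 1.5-fold or more, against 3.4% of genes, and the median was 0.27 against 0.03 over all genes.

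In the deposited cleaned table, the Z-scores of the genes had then been quantile normalized across time points, and in it the course of the first day remained while 18 h was lower. The Z-score at 18 h was 2.06 to 3.95 in FPKM and 0.34 (RACGAP1) to 2.25 (ANLN) in the cleaned table. Of the 10 genes, 5 were still highest at 18 h, namely TPX2, HMMR, NUSAP1, ANLN and CKAP2. The share of all genes highest at 18 h in the cleaned table was not taken, so this count cannot be compared with it. ECT2, RACGAP1 and ASPM were highest at 20 h, DLGAP5 at 22 h and PRC1 at 32 h. The lowest first-day Z-score remained from 2 h to 6 h except in ANLN, as in FPKM, and was lowest in RACGAP1, at -1.70 at 2 h, and DLGAP5, at -1.69 at 4 h.

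**Figure D4:**
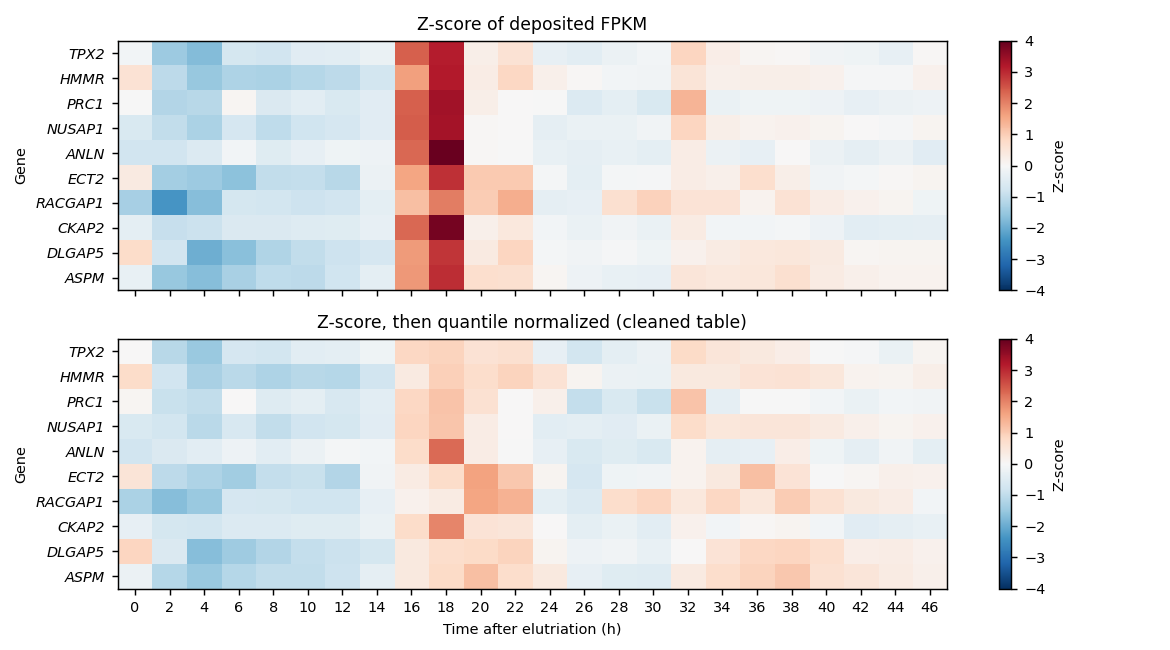
Z-scores (colour, blue below and red above the mean of each gene) of the 10 genes (rows) at each time point in hours (columns), from the deposited FPKM above and in the cleaned table below. The dark columns at 16 h and 18 h of the upper panel are paler in the lower panel, where ANLN at 2.25 and CKAP2 at 1.95 keep the highest values at 18 h.

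Genes that work beside these proteins were counted from lists set by function, also with earlier results of these data known. Counts set beside shares of all genes therefore describe the lists and the 10 genes and do not test them. The shares of all genes to read these counts against were 29.7% lowest from 2 h to 6 h, 25.2% highest at 20 h or 22 h, 5.1% for a difference between days, 11.9% for JTK and 9.02% for the single cosine. Of 19 spindle assembly partners, the kinases, motors and Ran factors of the spindle, 15 were lowest from 2 h to 6 h and 15 highest at 20 h or 22 h with 16 h and 18 h left out. The cosine differed between the days by limma in 8 of them, against 5.1% of genes, and in 5 without 16 h and 18 h, against 4.15%. JTK called 2, near the 11.9% of all genes, and the single cosine 4, against 9.02%. PLK1, the polo kinase, ranged from 30.4 FPKM at 4 h to 184 FPKM at 18 h, with an adjusted limma p for the difference of days of 0.00834. FAM83D, which brings casein kinase to the spindle, ranged from 9.62 FPKM at 2 h to 35.3 FPKM at 42 h (adjusted p = 0.244), and RAN, the GTPase, from 565 FPKM to 886 FPKM with a fitted difference of 0.06 on the log2 scale.

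Of 25 midzone and cleavage furrow partners, 19 were lowest from 2 h to 6 h and 16 highest at 20 h or 22 h. The days differed by limma in 5, and in 2 without 16 h and 18 h, against 4.15% of genes. KIF20A, the midzone kinesin, ranged from 3.59 FPKM at 4 h to 32.2 FPKM at 18 h (adjusted p = 0.00588). KIF14, a kinesin that binds PRC1, ranged from 7.07 FPKM at 2 h to 35.0 FPKM at 18 h (adjusted p = 0.0209) and was the 1 gene of the list called by JTK and by the single cosine. MYH10, a non-muscle myosin, ranged from 29.3 FPKM to 51.7 FPKM with a fitted difference of 0.04 on the log2 scale.

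The subunits of augmin and the γ-tubulin ring start new microtubules. Of 18 in the table, 6 were lowest from 2 h to 6 h, 4 were highest at 20 h or 22 h, and the days differed by limma in 0, while JTK called 5 and the single cosine 4. MZT1 ranged from 17.2 FPKM at 6 h to 42.9 FPKM at 22 h (adjusted JTK permutation p = 0.0368). MZT2B was lowest at 18 h, at 13.2 FPKM, and TUBGCP3 had a fitted difference of 0.08 on the log2 scale. Of 18 abscission genes, mostly the ESCRT-III machinery that cuts the last bridge, 6 were lowest from 2 h to 6 h, 3 highest at 20 h or 22 h, and the days differed in 1. JTK called 4, against 11.9% of genes, and the single cosine 1, CHMP1B, against 9.02%. The single cosine and the day comparison were thus near the shares of all genes. CHMP1B ranged from 9.69 FPKM to 19 FPKM. CHMP1A ranged from 14.8 FPKM at 18 h to 43.4 FPKM at 6 h, and CHMP4C had a fitted difference of 0.04 on the log2 scale.

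Of 10 S phase genes, the MCM helicase and its companions, 0 were lowest from 2 h to 6 h and 0 highest at 20 h or 22 h. JTK and the single cosine each called 6, and the days differed in 2. MCM5 was highest at 4 h, at 120.0 FPKM, the hour at which HMMR, TPX2, DLGAP5, NUSAP1 and ASPM were lowest, and CCNE2, a G1/S cyclin, was highest at 2 h, at 38.9 FPKM. MCM3 had a fitted difference of 0.16 on the log2 scale. The fitted first-day difference without 16 h and 18 h had a median of 0.56 in the spindle assembly partners, 0.31 in the midzone list, 0.25 in the augmin list, 0.22 in the abscission list and 0.57 in the S phase list, against 0.31 over all genes and 0.82 in the 10 genes.

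**Figure D5:**
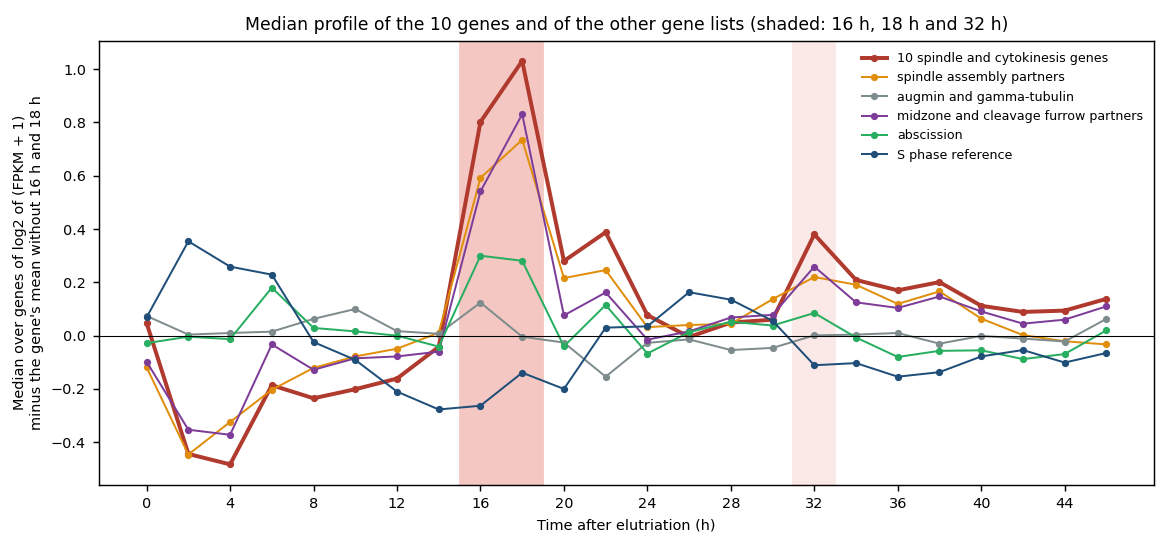
Median over genes of log2(FPKM + 1), less the mean of each gene without 16 h and 18 h, against time after elutriation in hours, for the 10 genes (thick line) and the 5 other lists, with 16 h, 18 h and 32 h shaded. The 10 genes and the spindle assembly and midzone partners dip from 2 h to 4 h and stand higher at 20 h and 22 h, and the S phase list is high from 2 h to 6 h.

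The mean Z-score profile of the 10 genes over 22 time points, without 16 h and 18 h, was lowest at 4 h and 2 h and was compared with 8968 genes that averaged at least 5 FPKM. Since all genes come from the same 22 libraries, the correlations across time points are a description. The members themselves had a Pearson r of 0.667 (ANLN) to 0.961 (CKAP2) with their own mean. The 10 genes outside them with the most alike profile were PSRC1 (r = 0.944), KIF20B (0.941), NEK2 (0.941), KIF20A (0.939), PLK1 (0.937), AURKA (0.935), CKAP5 (0.929), NCAPG (0.926), KIF18A (0.924) and CEP55 (0.924). Of these, 3 were also among the 10 most alike over all 24 time points. KIF20B and CEP55 deviated at 16 h and 18 h by 1.51 and 1.35 on the log2 scale, while PSRC1, at 10.6 FPKM and 12.5 FPKM there against 21.7 FPKM at 22 h, deviated by -0.45 and had an r of 0.444 over 24 time points. Genes of 1 course outside 16 h and 18 h thus differed widely in their values at these hours.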

How the data were processed

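RNA of K562 cells was sequenced at 24 time points, 1 library each, grouped by the time in the sample labels. The authors aligned reads with STAR to GRCh37 and deposited FPKM values from Cufflinks and Cuffnorm, as the submitters' processing notes list them. Versions, annotation and strandedness are not given in the sources used here. The cleaned table the authors deposited holds a score, the Z-score of each gene's FPKM followed by quantile normalization across time points, and differed from that transformation of the FPKM by at most 8.9e-16. No per-sample column was left unused (0). Each gene in the table had at least 1 FPKM in at least 12 time points. Depth is unknown and no count test was used. GC content came from the GRCh38 annotation and promoters from RefSeq GRCh38.p14. No gene coordinates of the study's build are given.

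The JTK statistic (12 phases of a 24 h cosine, 100000 orderings) was computed in Python 3.11.15. The cosine, level and day comparisons were fitted with limma 3.58.1 in R 4.3.3 to log2(FPKM + 1) of the genes that averaged 1 FPKM or more. All p-values were Benjamini–Hochberg adjusted over all genes, with a threshold of 0.05, and the scripts were tested on simulated data. Deviations, folds and likeness were given without a test. The named genes are the 10 members, for each list the 2 with the largest and the 1 with the smallest cosine amplitude, and the 10 most alike in profile. Alternatives were other libraries left out, periods, pseudocounts, filters, scalings and corrections. The members and lists were chosen with earlier results of these data known.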

Additional observations from a re-analysis of the deposited data

Results flagged for a closer look

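Of the 10 genes, 8 were picked out because the fitted cosine differed between the first day and the second by the limma interaction test. The Benjamini–Hochberg adjusted p was 0.00588 for HMMR, 0.00588 for ECT2, 0.00789 for ASPM, 0.00827 for DLGAP5, 0.0216 for TPX2, 0.0261 for CKAP2, 0.0427 for RACGAP1 and 0.0466 for NUSAP1. The first-day peak-to-trough difference of these genes was 0.90 (RACGAP1) to 2.18 (HMMR) on the log2 scale, and the second-day difference 0.13 (HMMR) to 0.32 (ASPM). Without 16 h and 18 h, TPX2 (adjusted p = 0.0663), NUSAP1 (adjusted p = 0.0520) and RACGAP1 (adjusted p = 0.112) no longer passed the limma test. Both days come from 1 culture, so time since elutriation and the day cannot be told apart.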

How the results depend on the processing

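Leaving out 16 h and 18 h moved the most results. The number of the 10 genes called then went from 2 to 0 by JTK and from 3 to 0 by the cosine fit, and that differing between days from 8 to 5. The number higher on the second day went from 2 to 5. The median amplitude went from 0.60 to 0.35 on the log2 scale and the median first-day range from 3.98-fold to 2.15-fold. JTK called 1 spindle assembly partner and not 2, and the cosine fit 5 abscission genes and not 1, while its share over all genes rose from 9.02% to 16.4%. The days then differed in 5 spindle assembly partners and not 8, and in 2 midzone partners and not 5, against 4.15% of genes. They differed in 0 abscission genes and not 1, and in 1 S phase gene and not 2. The level difference of PRC1 (0.08), ANLN (0.04) and CKAP2 (0.10) turned positive, each without passing the test. Without 32 h, the cosine fit called 6 and the days differed in 5. Without 16 h, 18 h and 32 h, chosen after seeing the data, the cosine fit called 3, as with all libraries, the days differed in 5, 4 were higher on the second day, the median amplitude was 0.39, and the level differences of PRC1, ANLN and CKAP2 were 0.03, 0.01 and 0.08. JTK called 1 gene with a 20 h period, 4 with 22 h and 0 with 28 h, 0 after PCHIP interpolation and 4 after quantile normalization. The cosine fit called 0 with a 20 h period, 0 with 28 h, 0 with a linear drift term and 5 after upper-quartile scaling. Peaks from 18 h to 24 h numbered 0 with a 20 h period, 1 with 22 h and 9 with 28 h, and the days differed in 4 with 22 h. For these periods, scalings and corrections the shares of all genes called are not at hand. The counts of the 10 genes in these settings therefore cannot be read against them. Upper-quartile scaling gave 5 genes higher on the second day, also without a share of all genes, and a first-day range of 3.22-fold. It left 1 gene at 2-fold at 16 h and 18 h, against 4.73% of genes. As deposited, 8 genes deviated there at 1.5-fold, against 23.9% of genes. Less the median of genes of nearest GC content, chosen after seeing the data, 0 did at 2-fold. With 1000000 orderings, also chosen after seeing the data, JTK called 2, against 13% of genes. The causes of these changes were not tested. Fewer libraries enter where time points were left out, and a part of this in the changes was not tested either. No paired analysis was possible because each time point is 1 library, so that no replicate number links samples of different groups; hours 24 h apart were set side by side without a test. Unknown depth and single libraries limit every value.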
